A study of Rattus norvegicus with 24 samples.

Results

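The miR-183 cluster is a microRNA (miR) polycistron: the hairpins of miR-182, miR-96 and miR-183 lie on the same strand of rat chromosome 4 and are copied as a shared primary transcript. Its members here were chosen by name alone, as every rat miR-183, miR-96 or miR-182 probe set with any arm suffix. That rule found 5 of the 758 miRs on the array: rno-miR-183-5p, rno-miR-183-3p, rno-miR-96-5p, rno-miR-96-3p and rno-miR-182, written without the species prefix from here on. The question was whether members of a shared transcript moved together when the cells were treated.

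The samples were 24 one-colour rat miRNA arrays of INS1 cells, a rat insulinoma line used as a stand-in for pancreatic beta cells. As a tumour line it is a model with limits. The cytokines were IL-1β at 150 pg/ml with IFN-γ at 0.1 ng/ml, given for 6 or 24 h, and Givinostat, an inhibitor of histone deacetylases, was given at 125 nM 1 h before them. The 8 groups, of 3 arrays each, were 6h_Ctrl and 24h_Ctrl (neither agent), 6h_Cyt and 24h_Cyt (cytokines), 6h_Giv_Ctrl and 24h_Giv_Ctrl (Givinostat), and 6h_Giv_Cyt and 24h_Giv_Cyt (both). The deposited description speaks of independent experiments with technical replicates and the study's methods of replicates. Whether the arrays of a group come from separate cultures is not stated, so every p-value below measures the spread between these arrays.

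The members of the cluster are known best from sensory cells of the eye and the inner ear, and changes in the seed of miR-96 cause hearing loss. A miR guides its silencing complex to messages that pair with its seed, the bases near its 5′ end. Although the hairpins are cut from a shared transcript, mature levels also depend on how each hairpin is processed and on how long each product lasts.

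All 5 members had a mature sequence in the RefSeq table of build GRCr8. They are printed 5′ to 3′ because the seeds show which members could pair with the same messages; capitals mark the seed, bases 2 to 8. The first pair below shares bases 2 to 7 but not base 8, and the other 3 share their seed with no other member. miR-96-5p and miR-182 are known repressors of FoxO transcription factors, and miR-183-5p of the cytoskeletal linker ezrin.
miR-96-5p: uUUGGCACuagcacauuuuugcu
miR-182: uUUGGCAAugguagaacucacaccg
miR-183-5p: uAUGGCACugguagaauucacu
miR-183-3p: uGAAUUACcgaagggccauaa
miR-96-3p: cAAUCAUGugcagugccaauau

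Over the whole strand, seed included, the likeness ran differently. miR-182 and miR-183-5p had the same base at 18 of 22 positions, with UGGUAGAA as their longest shared run. miR-182 and miR-96-5p had the same base at 12 of 23 positions, and miR-183-5p and miR-96-5p at 13 of 22. On the minus strand of chromosome 4 the hairpins stood at chr4:59752246-59752307 (miR-182), chr4:59755841-59755946 (miR-96) and chr4:59756044-59756153 (miR-183), a span of 3908 bases. miR-96 lay 97 bases from miR-183 and 3533 bases from miR-182. Of the 680 other array miRs with a mature sequence, 0 shared bases 2 to 7 with a member.

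Features of the arrays bear on the values below. The arrays were spread over 4 slides, and the 24h_Cyt arrays shared none with 24h_Ctrl: 2 were on slide 1 and 1 on slide 2, while all 3 24h_Ctrl arrays were on slide 4. Brightness was taken as the 75th percentile of processed signal among the miRs detected throughout. Its median was 742 (596 to 1003) on the 24h_Cyt arrays and 347 (271 to 347) on the 24h_Ctrl arrays. On the 24h_Giv_Cyt arrays the median was 542 and on the 24h_Giv_Ctrl arrays 435. An array each of 2 groups stood apart from its own group: 6h_Giv_Ctrl replicate 1 had r of 0.958 and 0.960 over miRs with the other replicates, which had 0.998 between them, and 6h_Giv_Cyt replicate 3 had 0.970 and 0.978 against 0.997.

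The label INS1 was checked against 8 beta-cell miRs. Of these, 4 were well above background on all 24 arrays (miR-375-3p, miR-7a-5p, miR-200c-3p and miR-141-3p) and 4 on none (miR-200a-3p, miR-200b-3p, miR-429 and miR-184). Among 14 miRs of liver, muscle, blood and exocrine pancreas, miR-206-3p was well above background on all 24 arrays, miR-1-3p on 3 and 12 on none. The median processed intensity was 71.5 for miR-206-3p and 1351 for miR-375-3p. These come from different probe sets and do not compare as amounts of RNA.

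Detection of a member meant that 8 or more of its 16 spots on the array were well above background. miR-96-5p, miR-183-5p and miR-182 were detected on 24 of 24 arrays, as were 117 of the 758 miRs. The 3p arms, miR-183-3p and miR-96-3p, were detected on 0 of 24, as were 534 miRs. Processed intensity of miR-183-3p lay between 0.83 and 23.0 and that of miR-96-3p between -0.71 and 5.84, and their 16-spot means are given by counts alone. Every probe of miR-96-3p was at background. For miR-183-3p the longest probe, with 4 spots, was well above background on 89.6% of its spots and each other probe on 1.04% or less, so that probe can be read and the 16-spot mean is mostly background. In order of mean signal over all arrays, miR-96-5p was 34th, miR-183-5p 38th and miR-182 56th of the 758; the ranks place each probe set on the array and are not amounts of RNA.

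Signals are log2 of quantile-normalized median spot intensity, without subtraction of background, averaged over the 16 spots of a miR. At 6 h, miR-96-5p read 8.36, 8.62 and 8.54 in 6h_Ctrl, 8.80, 8.45 and 8.72 in 6h_Cyt, 8.81, 8.42 and 8.47 in 6h_Giv_Ctrl, and 8.50, 8.68 and 8.12 in 6h_Giv_Cyt. Every one of these 4 groups overlapped the other 3. At 24 h it read 8.23, 7.96 and 8.39 in 24h_Ctrl, 8.92, 8.85 and 8.93 in 24h_Cyt, 8.27, 8.70 and 8.72 in 24h_Giv_Ctrl, and 8.58, 8.63 and 8.76 in 24h_Giv_Cyt. The 3 cytokine arrays without Givinostat stood above every other array of the series, and the 24h_Ctrl arrays below both cytokine groups of that time.

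miR-183-5p at 6 h read 8.33, 8.37 and 8.33 in 6h_Ctrl, 8.39, 8.31 and 8.28 in 6h_Cyt, 8.47, 8.05 and 7.87 in 6h_Giv_Ctrl, and 8.29, 8.25 and 7.86 in 6h_Giv_Cyt. The low values were the 2 6h_Giv_Ctrl arrays of slide 2 and 6h_Giv_Cyt replicate 3, an array that stood apart. At 24 h it read 8.37, 8.30 and 8.32 in 24h_Ctrl, 8.24, 8.28 and 8.24 in 24h_Cyt, 8.25, 8.34 and 8.37 in 24h_Giv_Ctrl, and 8.16, 8.36 and 8.21 in 24h_Giv_Cyt. The 24h_Cyt arrays all read below the 24h_Ctrl arrays, by a margin smaller than the spread within 24h_Giv_Cyt.

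miR-182 at 6 h read 7.57, 7.45 and 7.51 in 6h_Ctrl, 7.50, 7.48 and 7.49 in 6h_Cyt, 7.52, 7.45 and 7.51 in 6h_Giv_Ctrl, and 7.49, 7.51 and 7.38 in 6h_Giv_Cyt. All of these groups overlapped. At 24 h it read 7.50, 7.55 and 7.55 in 24h_Ctrl, 7.30, 7.36 and 7.37 in 24h_Cyt, 7.53, 7.55 and 7.56 in 24h_Giv_Ctrl, and 7.46, 7.46 and 7.36 in 24h_Giv_Cyt. At that time the arrays with cytokines read below those without, with and without Givinostat, and no array of 24h_Cyt overlapped 24h_Ctrl.

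**Figure D1:**
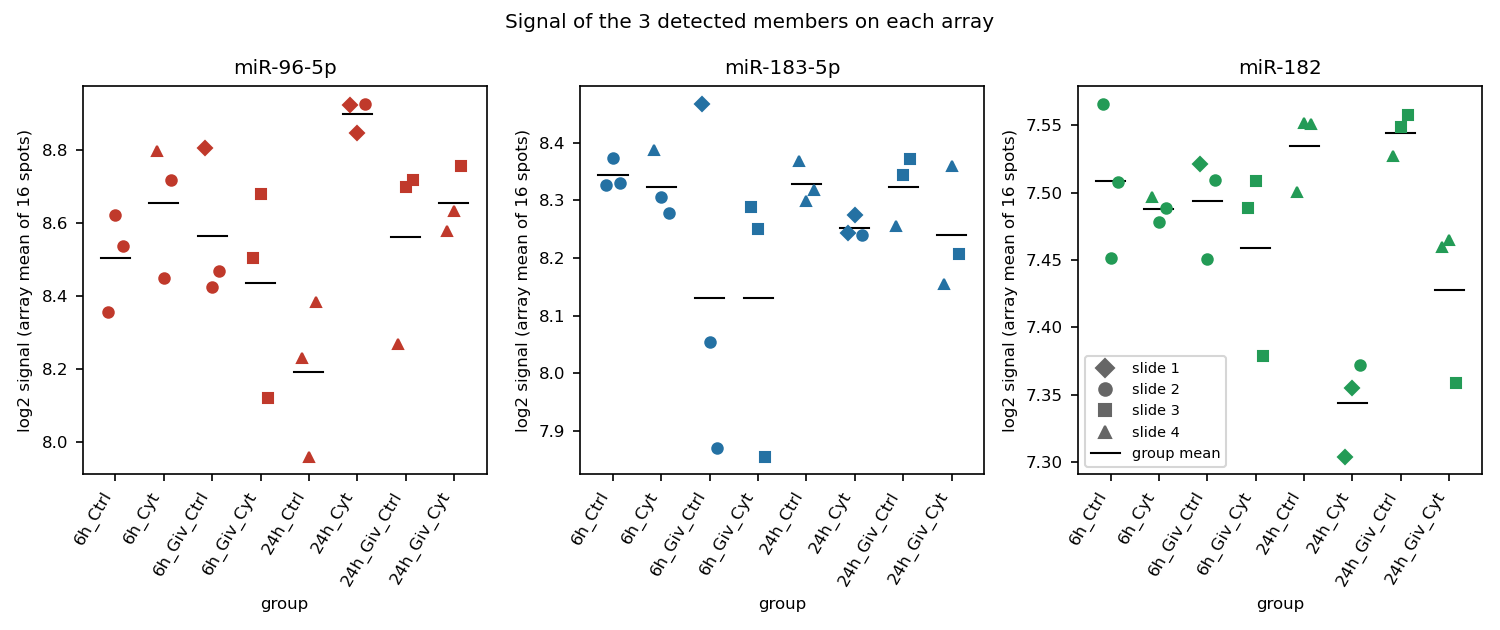
Log2 signal (vertical axis, array mean of 16 spots) of the 3 detected members on each of 24 arrays by group; symbols give the slide and lines the group mean. On this quantile-normalized scale the 24h_Cyt arrays read 8.85 to 8.93 for miR-96-5p, above the 7.96 to 8.39 of 24h_Ctrl. For miR-182 they read 7.30 to 7.37, below the 7.50 to 7.55 of 24h_Ctrl. Without normalization between arrays miR-182 is higher in 24h_Cyt by 0.62, less than the 0.83 of the median detected miR.

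Ordered by group mean, miR-96-5p ran from 24h_Cyt (8.90, SD 0.044) through 24h_Giv_Cyt (8.66), 6h_Cyt (8.66), 6h_Giv_Ctrl (8.57), 24h_Giv_Ctrl (8.56), 6h_Ctrl (8.50) and 6h_Giv_Cyt (8.43) to 24h_Ctrl (8.19, SD 0.22). Of its 7 neighbouring pairs in that order, 24h_Cyt and 24h_Giv_Cyt alone did not overlap. miR-183-5p ran from 6h_Ctrl (8.34) through 24h_Ctrl (8.33), 24h_Giv_Ctrl (8.32), 6h_Cyt (8.32), 24h_Cyt (8.25), 24h_Giv_Cyt (8.24) and 6h_Giv_Cyt (8.13) to 6h_Giv_Ctrl (8.13, SD 0.31), and there 6h_Cyt and 24h_Cyt were the neighbours without overlap. For miR-182 the order was 24h_Giv_Ctrl (7.54), 24h_Ctrl (7.53), 6h_Ctrl (7.51), 6h_Giv_Ctrl (7.49), 6h_Cyt (7.49), 6h_Giv_Cyt (7.46), 24h_Giv_Cyt (7.43) and 24h_Cyt (7.34, SD 0.035), and every pair of neighbours overlapped. Over all 24 arrays the signal spanned 0.97 for miR-96-5p, 0.61 for miR-183-5p and 0.26 for miR-182.

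After 24 h of cytokines without Givinostat 2 members were called in opposite directions on the quantile-normalized scale. miR-96-5p was higher and miR-182 lower, while miR-183-5p had a small negative value that missed the test. By limma over all 758 miRs a miR was called when its log2 fold change (log2FC) passed the log2 of 1.1 in size with an adjusted p below 0.05. In 24h_Cyt vs 24h_Ctrl 2 of 5 members were called, against 4.09% of all miRs (31, of which 20 higher and 11 lower). Both called members are among the 117 miRs detected on all arrays, while 534 of the 758 were detected on none. The shares therefore do not compare like with like. The count of 31 ran from 14 to 44 with single arrays left out. It was 87 with each array's processed signal divided by its 75th percentile.

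The log2FC of miR-96-5p was 0.71 (SE 0.15, 95% interval 0.39 to 1.03, adjusted p 0.0091 by limma), and each of the 3 cytokine arrays read above each control array. It was the 4th highest of the 117 miRs detected on all arrays, whose log2FC ran from -0.44 (5th percentile) to 0.52 (95th percentile) with a median of -0.055. That of miR-182 was -0.19 (SE 0.035, interval -0.27 to -0.12, adjusted p 0.0036 by limma), lower on 3 of 3 arrays, rank 91 of 117. For miR-183-5p the log2FC was -0.075 (SE 0.11, interval -0.32 to 0.17, adjusted p 0.72 by limma), rank 68 of 117. Its interval does not reach the log2FC of miR-96-5p, but it holds that of miR-182.

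The 3 arrays of one group lay wholly above or wholly below those of the other for 3 of 5 members in this comparison, against 36.7% of the 758 miRs. With that share of all miRs doing so, the absence of overlap sets no member apart. In the pooled fit over spots, which takes the 16 spots of an array as repeated measurements with a correlation of 0.037, 1 of 5 members was called, as were 48 of the 758 miRs. miR-96-5p was called and miR-182 had an adjusted p of 0.74. That fit has no term for probe, so unlike signal levels of a miR's probes enter its error. At so low a correlation the spots of an array count almost as separate samples, so a call in the pooled fit adds no support to one over arrays.

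How the arrays were scaled moved the size for all 3 detected members, and the sign for miR-182 and miR-183-5p. Without normalization between arrays the median log2FC of the 117 detected miRs in 24h_Cyt vs 24h_Ctrl was 0.83, and all 3 members were called higher, among 173 of the 758 miRs: miR-96-5p at 1.86, miR-183-5p at 0.96 and miR-182 at 0.62, the last below that shift. With each array's processed signal divided by its 75th percentile, where the median miR shifted by -0.11, the values were 0.85 for miR-96-5p (adjusted p 0.00059), -0.44 for miR-182 (adjusted p 0.00059) and -0.18 for miR-183-5p (adjusted p 0.13). miR-96-5p was thus higher, and above the median miR, on every scale tried, and miR-182 was below the median miR on every scale tried.

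Group and slide cannot be told apart by a comparison within a slide here. With slide as a random block (correlation 0.082) the values were 0.69 for miR-96-5p and -0.19 for miR-182. Both were called (adjusted p 0.021 and 0.0087 by limma), in a fit that also uses differences between slides. With slide as a fixed block, the log2FC was 0.82 for miR-96-5p (adjusted p 0.37 by limma) and -0.18 for miR-182 (adjusted p 0.55), and 1 miR was called. Without the slide 1 arrays it was 0.70 (SE 0.21, adjusted p 0.20) and -0.16 (SE 0.052, adjusted p 0.22), with 3 miRs called. That leaves 1 24h_Cyt array, assumed to vary like the arrays of the other groups, so the standard errors grew. The sizes hardly moved. The lone 24h_Cyt array of slide 2 differed from the 24h_Ctrl mean by 0.74 for miR-96-5p, -0.16 for miR-182 and -0.088 for miR-183-5p. These differences are close to the values over all arrays. That array shares no slide with the 24h_Ctrl arrays, so these values still compare between slides. The part of slide in them was not tested. The remaining array of slide 1, 6h_Giv_Ctrl replicate 1, read above the other 2 of its group by 0.36 for miR-96-5p, 0.51 for miR-183-5p and 0.041 for miR-182, with a median of 0.21 over the 117 miRs.

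Brightness moved with the same comparison. Over the 24 arrays miR-96-5p had r of 0.73 (rho 0.74) with brightness, miR-182 -0.58 (rho -0.41) and miR-183-5p 0.18 (rho -0.0096); with group means removed r was 0.49, 0.22 and 0.65. With brightness as a covariate the 24h_Cyt vs 24h_Ctrl log2FC was 0.32 for miR-96-5p (adjusted p 0.45 by limma), -0.23 for miR-182 (adjusted p 0.093) and -0.46 for miR-183-5p (adjusted p 0.15), with 3 miRs called. Its part in the result was not tested, since the 24h_Cyt arrays were all brighter than the 24h_Ctrl arrays. The call of miR-96-5p also rested on 24h_Ctrl replicate 2, its lowest array: without it the log2FC was 0.59 (adjusted p 0.064 by limma).

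With Givinostat present no member was called for cytokines at 24 h. In 24h_Giv_Cyt vs 24h_Giv_Ctrl the log2FC was 0.094 for miR-96-5p (SE 0.15, interval -0.22 to 0.41, adjusted p 0.76 by limma), -0.12 for miR-182 (SE 0.035, interval -0.19 to -0.042, adjusted p 0.15) and -0.083 for miR-183-5p (SE 0.11, interval -0.32 to 0.16, adjusted p 0.71, -0.14 to -0.042 with single arrays left out). By limma 0 of 5 members were called, against 0.528% of all miRs; 1 had an unadjusted p below 0.05, miR-182 at 0.0041, as had 93 of the 758 miRs. The pooled fit called 0 members and 43 miRs. Averaging the spots by their median in place of their mean gave miR-182 a log2FC of -0.27 with a call (adjusted p 0.014 by limma). Without normalization between arrays the median log2FC of the 117 detected miRs was 0.43, and 323 of the 758 miRs were called but no member. There miR-182 had 0.32 and miR-183-5p 0.34, both below that shift, and miR-96-5p had 0.56, above it.

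These groups met on 2 slides. On slide 3 the cytokine array differed from the other arrays by 0.047 for miR-96-5p, -0.15 for miR-183-5p and -0.19 for miR-182, and on slide 4 the differences were 0.34, 0.0026 and -0.065. The slides gave the same sign for miR-96-5p and miR-182 and unlike sizes. The sign of miR-96-5p was not stable, at -0.053 without 24h_Giv_Ctrl replicate 1 and -0.043 with brightness as a covariate.

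A call without Givinostat and none with it does not show that the responses differed; the interaction term does that test. For miR-96-5p the interaction of Givinostat and cytokines at 24 h was -0.61 (SE 0.21, interval -1.06 to -0.16), with an unadjusted p of 0.010 and an adjusted p of 0.78 by limma. It was 116th of 117 detected miRs in order from the highest. For miR-182 it was 0.074 (SE 0.050, adjusted p 0.95) and for miR-183-5p -0.0076 (SE 0.16, adjusted p 0.99). By limma 0 of 5 members were called, as was 0% of the 758 miRs; for 1 member and 39 miRs the unadjusted p was below 0.05, and the pooled fit called 1 member and 22 miRs. On the scaled processed signal the term for miR-96-5p was called, at -0.68 (adjusted p 0.010 by limma), among 24 of the 758 miRs. Whether the response of miR-96-5p differed with Givinostat thus depends on the scale. The term also holds 24h_Cyt and 24h_Ctrl, which share no slide and differ in brightness. It was -0.365 with brightness as a covariate and -0.625 with slide as a fixed block, without a call in either.

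Givinostat set against its absence gave no member call at 24 h. In 24h_Giv_Cyt vs 24h_Cyt the log2FC was -0.24 for miR-96-5p (interval -0.56 to 0.074, adjusted p 0.97 by limma), 0.084 for miR-182 (interval 0.0095 to 0.16, adjusted p 0.91) and -0.012 for miR-183-5p (interval -0.25 to 0.23, adjusted p 0.99). That was 0 of 5 members, against 0.132% of all miRs, with 1 member (miR-182) and 38 miRs at an unadjusted p below 0.05, and 1 member (miR-96-5p) and 24 miRs called by the pooled fit. The sign of miR-182 turned there with the median over spots, to -0.0071. Without normalization between arrays it had -0.16, above the -0.29 of the median detected miR. In 24h_Giv_Ctrl vs 24h_Ctrl the log2FC was 0.37 for miR-96-5p (interval 0.053 to 0.69, adjusted p 0.98 by limma), 0.0099 for miR-182 and -0.0043 for miR-183-5p. There 0 of 5 members were called, as was 0% of all miRs, with miR-96-5p among 32 miRs at an unadjusted p below 0.05 and among 3 called by the pooled fit. miR-96-5p was called there on the scaled processed signal (0.40, adjusted p 0.029 by limma), as were 23 miRs in all. It ranked 2nd highest of 117 in that comparison, and on the single slide the groups share its difference was 0.076. Both comparisons that start from 24h_Ctrl share those control arrays, whose miR-96-5p values were the lowest of the series as a group.

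At 6 h no member passed the test in any of 4 comparisons. By limma 0 of 5 members were called in 6h_Cyt vs 6h_Ctrl, 6h_Giv_Cyt vs 6h_Giv_Ctrl, 6h_Giv_Cyt vs 6h_Cyt and 6h_Giv_Ctrl vs 6h_Ctrl, and 0% of all miRs in each. In each, 0 members had an unadjusted p below 0.05, against 30, 26, 24 and 34 of the 758 miRs in that order. The pooled fit called 1 member (miR-96-5p) and 21 miRs in 6h_Giv_Cyt vs 6h_Cyt, and 0 members and 2, 0 and 5 miRs in the other 3. For 6h_Cyt vs 6h_Ctrl the log2FC was 0.15 for miR-96-5p (interval -0.17 to 0.47, 0.076 to 0.26 with single arrays left out), -0.020 for miR-183-5p (interval -0.26 to 0.22) and -0.020 for miR-182 (interval -0.095 to 0.054). That of miR-96-5p was the highest of the 117 detected miRs, and within slide 2 it was 0.079.

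Among the Givinostat groups at 6 h the values depended on single arrays, those that stood apart and others. In 6h_Giv_Ctrl vs 6h_Ctrl miR-183-5p had a log2FC of -0.21 (interval -0.45 to 0.028, adjusted p 0.98 by limma) with all arrays and -0.38 (adjusted p 0.15) without 6h_Giv_Ctrl replicate 1, but -0.084 without 6h_Giv_Ctrl replicate 3. Within slide 2 the difference was -0.38. miR-96-5p had 0.062 with all arrays, -0.056 without 6h_Giv_Ctrl replicate 1 and 0.13 without 6h_Giv_Ctrl replicate 2. In 6h_Giv_Cyt vs 6h_Cyt the log2FC was -0.22 for miR-96-5p, -0.19 for miR-183-5p and -0.029 for miR-182 with all arrays, and -0.063, -0.055 and 0.011 without 6h_Giv_Cyt replicate 3. Without 6h_Giv_Cyt replicate 2 they were -0.35, -0.25 and -0.054. In 6h_Giv_Cyt vs 6h_Giv_Ctrl miR-183-5p had 0.00053 with all arrays, 0.17 without 6h_Giv_Ctrl replicate 1, 0.14 without 6h_Giv_Cyt replicate 3 and -0.13 without 6h_Giv_Ctrl replicate 3. The interaction of Givinostat and cytokines at 6 h was -0.28 for miR-96-5p (-0.41 to -0.12 with single arrays left out), 0.020 for miR-183-5p and -0.014 for miR-182; 0 of 5 members were called by limma, as was 0% of all miRs. At an unadjusted p below 0.05 there were 0 members and 12 miRs, and the pooled fit called miR-96-5p alone.

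Time was compared within each treatment. In 24h_Cyt vs 6h_Cyt 0 of 5 members were called, against 0.792% of all miRs. miR-182 came closest, at -0.14 (SE 0.035, unadjusted p 0.00074, adjusted p 0.064 by limma). Its call appeared when any of 3 single arrays was left out: 24h_Giv_Cyt replicate 3 (adjusted p 0.044), 6h_Ctrl replicate 1 (0.037) or 6h_Giv_Cyt replicate 3 (0.023), none of which belongs to the groups compared. miR-96-5p had 0.24 (interval -0.073 to 0.56, adjusted p 0.54, 0.14 to 0.32 with single arrays left out) and was the member the pooled fit called, among 18 miRs. Without normalization between arrays the median log2FC of the 117 detected miRs was 0.69, and 122 of the 758 miRs were called. Among them were all 3 detected members as higher, by limma: miR-96-5p at 1.09 (adjusted p 0.0062), miR-183-5p at 0.74 (adjusted p 0.029) and miR-182 at 0.49 (adjusted p 0.013). Against that shift miR-182 was lower, by 0.20, and miR-183-5p stood 0.051 above it. Within slide 2 the differences were -0.11 for miR-182, 0.34 for miR-96-5p and -0.052 for miR-183-5p.

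In 24h_Ctrl vs 6h_Ctrl the log2FC of miR-96-5p was -0.31 (interval -0.63 to 0.0049, adjusted p 0.82 by limma, -0.41 to -0.20 with single arrays left out), 115th of 117 from the highest. There 0 of 5 members were called, as was 0% of all miRs, with 0 members and 39 miRs at an unadjusted p below 0.05. The pooled fit called 1 member (miR-96-5p) and 5 miRs. Called on the scaled processed signal, miR-96-5p there had -0.50 (adjusted p 0.0074 by limma), with 35 miRs called in all. In 24h_Giv_Ctrl vs 6h_Giv_Ctrl 0 of 5 members were called, as was 0% of all miRs, with 0 members and 30 miRs at an unadjusted p below 0.05, and 0 and 2 by the pooled fit. miR-183-5p had 0.19, with 0.36 without 6h_Giv_Ctrl replicate 1 and 0.064 without 6h_Giv_Ctrl replicate 3. In 24h_Giv_Cyt vs 6h_Giv_Cyt 0 of 5 were called, against 0.396% of all miRs, with 0 members and 67 miRs at an unadjusted p below 0.05, and 1 member (miR-96-5p, 0.22) and 14 miRs by the pooled fit. That 0.22 was 0.064 without 6h_Giv_Cyt replicate 3 and 0.35 without 6h_Giv_Cyt replicate 2.

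The cytokine effect at 24 h minus that at 6 h was 0.56 for miR-96-5p (SE 0.21, unadjusted p 0.018, adjusted p 0.39 by limma), -0.17 for miR-182 (SE 0.050, unadjusted p 0.0032, adjusted p 0.25) and -0.056 for miR-183-5p (SE 0.16, adjusted p 0.96, -0.078 to -0.024 with single arrays left out). By limma 0 of 5 members were called, against 0.528% of all miRs, with 2 members and 71 miRs at an unadjusted p below 0.05, and 1 member (miR-96-5p) and 21 miRs by the pooled fit. Scaled processed signal gave 2 member calls, miR-96-5p at 0.73 and miR-182 at -0.39 (adjusted p 0.0099 each, by limma), among 51 of the 758 miRs. Without normalization between arrays miR-182 had the opposite sign, at 0.52, below the shift of the median miR of 0.69.

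**Figure D2:**
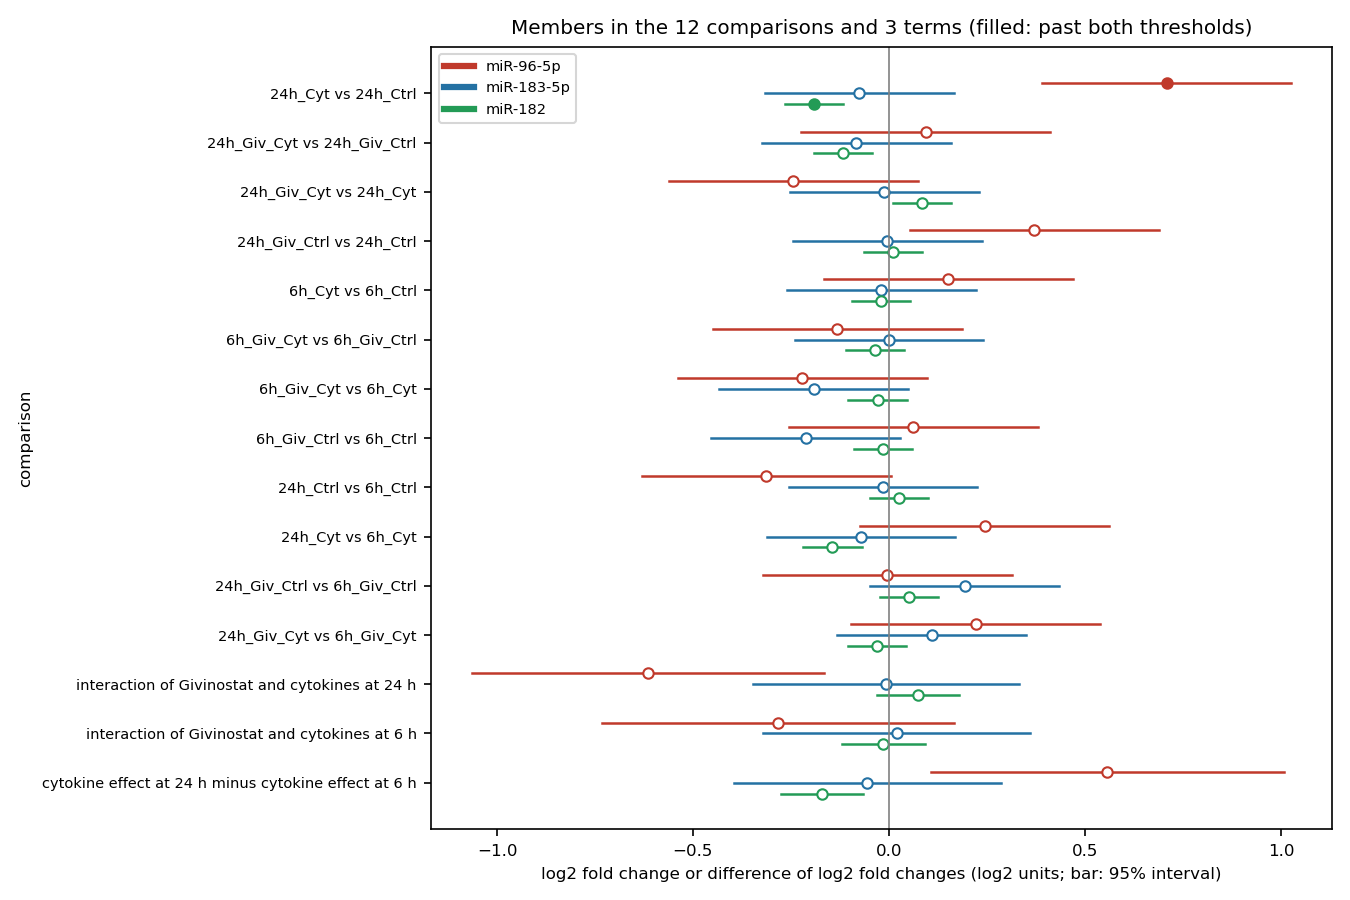
Log2FC, or difference of log2FC for the last 3 lines, of the 3 detected members (horizontal axis, log2 units) in 12 comparisons and 3 terms, with 95% limma intervals; filled points passed both thresholds. The 2 filled points are miR-96-5p at 0.71 and miR-182 at -0.19 in 24h_Cyt vs 24h_Ctrl. Without normalization between arrays the latter is 0.62, below the 0.83 of the median detected miR.

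The difference between members on the same array asks directly whether they moved by the same amount. On the quantile-normalized scale, without background subtraction, a factor common to an array need not cancel in it. miR-96-5p minus miR-182 read 0.73, 0.41 and 0.83 in 24h_Ctrl, 1.62, 1.49 and 1.56 in 24h_Cyt, 0.74, 1.15 and 1.16 in 24h_Giv_Ctrl, and 1.12, 1.17 and 1.40 in 24h_Giv_Cyt. The 24h_Cyt arrays stood above every other array of the series, and the Givinostat groups overlapped each other. miR-96-5p minus miR-183-5p read -0.14, -0.34 and 0.068 in 24h_Ctrl, 0.68, 0.57 and 0.69 in 24h_Cyt, 0.013, 0.35 and 0.35 in 24h_Giv_Ctrl, and 0.42, 0.27 and 0.55 in 24h_Giv_Cyt. miR-183-5p minus miR-182 read 0.87, 0.75 and 0.77 in 24h_Ctrl, 0.94, 0.92 and 0.87 in 24h_Cyt, 0.73, 0.80 and 0.81 in 24h_Giv_Ctrl, and 0.70, 0.89 and 0.85 in 24h_Giv_Cyt. This last difference moved least: its 24h_Cyt and 24h_Ctrl means were 0.91 (SD 0.036) and 0.79 (SD 0.065).

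These differences were tested for cytokines and for Givinostat at each time, 12 tests in all, by an exact two-sided permutation of treatment labels within 2 strata, without and with the other agent. With 400 labelings the smallest p possible was 0.005. For cytokines at 24 h the mean shift of miR-96-5p minus miR-182 was 0.56 (0.90 without and 0.21 with Givinostat; exact p 0.02, adjusted p 0.12). That of miR-96-5p minus miR-183-5p was 0.48 (0.78 without and 0.18 with Givinostat; exact p 0.02, adjusted p 0.12), and that of miR-183-5p minus miR-182 was 0.075 (0.12 and 0.034; exact p 0.085, adjusted p 0.32). None of the 12 reached an adjusted p below 0.05 on the quantile-normalized scale, and a difference alone at the smallest p would adjust to 0.06, so none could have passed by itself.

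On the scaled processed signal, which has background subtracted, 2 of the 12 did. miR-96-5p minus miR-182 shifted by 0.83 with cytokines at 24 h (1.29 without and 0.37 with Givinostat) and miR-183-5p minus miR-182 by 0.20 (0.26 and 0.15), each at the smallest exact p of 0.005 and an adjusted p of 0.03. miR-96-5p minus miR-183-5p shifted by 0.63 (1.03 and 0.22; exact p 0.02, adjusted p 0.08). The permutation takes no account of slide, and 24h_Cyt and 24h_Ctrl share none. Without the slide 1 arrays, on the quantile-normalized scale, the shifts were 0.53 (miR-96-5p minus miR-182), 0.48 (miR-96-5p minus miR-183-5p) and 0.053. With 1 24h_Cyt array and 80 labelings left, that setting is no test of slide. A difference within an array does not say which of the members changed.

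For cytokines at 6 h the shifts of the 3 differences lay between 0.018 and 0.037, with exact p from 0.74 to 0.87, and all 3 turned negative on at least 1 other setting. The shift of miR-96-5p minus miR-182 was 0.17 without and -0.097 with Givinostat, and that of miR-96-5p minus miR-183-5p 0.17 and -0.13. For Givinostat at 24 h the means lay between -0.055 and 0.071 (exact p 0.22 to 0.95), and here too they average unlike values. miR-96-5p minus miR-182 shifted by 0.36 without and -0.33 with cytokines, miR-96-5p minus miR-183-5p by 0.37 and -0.23, and miR-183-5p minus miR-182 by -0.014 and -0.096. With single arrays left out the mean of miR-96-5p minus miR-183-5p ran from 0.021 to 0.13 and that of miR-183-5p minus miR-182 from -0.075 to -0.026. For Givinostat at 6 h the largest was miR-183-5p minus miR-182, at -0.18 (exact p 0.11, adjusted p 0.32). It ran from -0.25 to -0.11 with single arrays left out and was -0.090 on the scaled processed signal. For the same agent and time miR-96-5p minus miR-183-5p had 0.12 (0.27 without and -0.028 with cytokines; exact p 0.22), and 0.076 to 0.15 with single arrays left out. All of these missed the threshold, which does not show that the members moved alike.

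**Figure D3:**
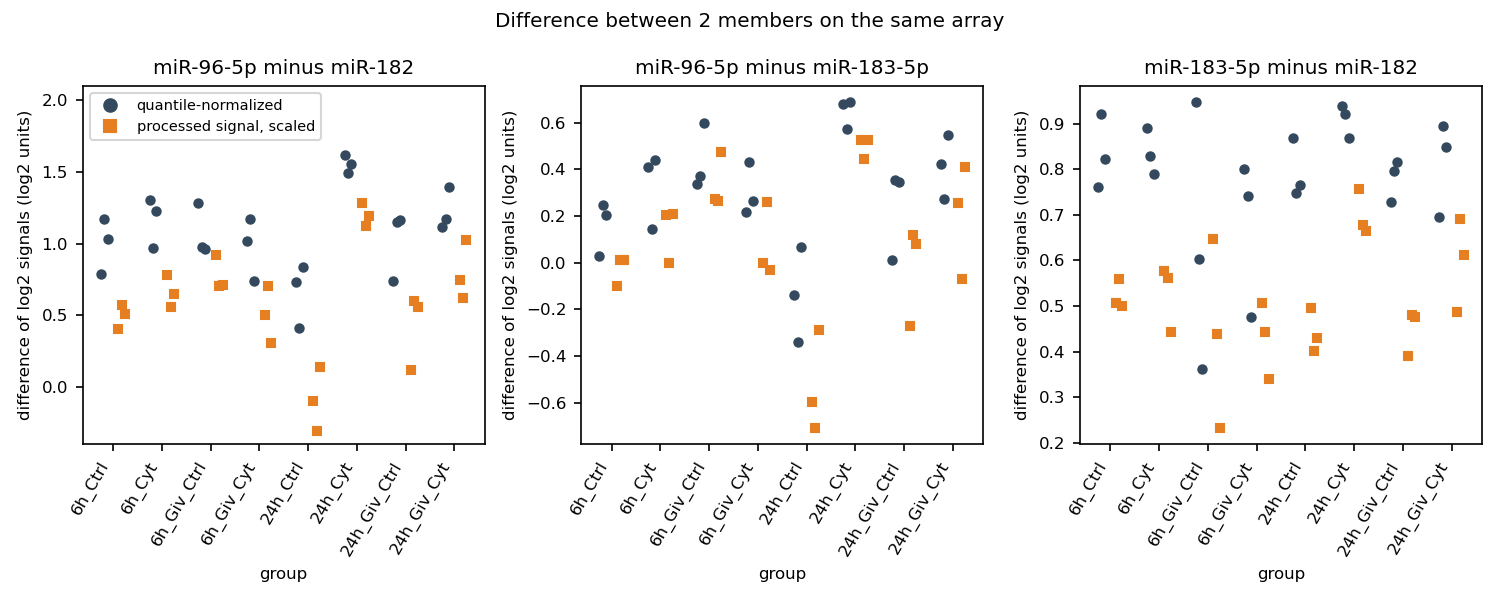
Difference of log2 signal between 2 members on the same array (vertical axis, log2 units) for each of 24 arrays by group, on the quantile-normalized scale (circles) and the scaled processed scale (squares). miR-96-5p minus miR-182 reads 1.49 to 1.62 in 24h_Cyt against 0.41 to 0.83 in 24h_Ctrl on the first scale, and 1.12 to 1.28 against -0.31 to 0.14 on the second.

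Across all 24 arrays the members were only loosely related. Pearson r was 0.34 (Spearman rho 0.46) between miR-182 and miR-183-5p, -0.42 (rho -0.40) between miR-182 and miR-96-5p, and 0.30 (rho 0.13) between miR-183-5p and miR-96-5p. With group means removed, r was 0.42, 0.25 and 0.65, so arrays of the same group that read high for miR-183-5p tended to read high for miR-96-5p. Within slides r between miR-183-5p and miR-96-5p was 0.20 (rho 0.048) on slide 2 (8 arrays), 0.88 (rho 0.37) on slide 3 (6 arrays) and 0.13 (rho 0.32) on slide 4 (7 arrays). Slide 3 held 6h_Giv_Cyt replicate 3, an array that stood apart. Between miR-182 and miR-96-5p r was -0.76, 0.45 and -0.69 on the same slides (rho -0.45, 0.14 and -0.71). Between miR-182 and miR-183-5p it was 0.010, 0.75 and 0.15 (rho 0.14, 0.89 and -0.036), and slide 1 held too few arrays. On the scaled processed signal r over 24 arrays was 0.67, -0.52 and -0.097 for the pairs in the order first given. The arrays share slides and brightness, so these are descriptions of the 24 arrays.

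Each member is read by more than 1 probe design, all fully paired to the 3′ end of the mature strand. miR-96-5p had probes of 20 and 21 bases, with 8 spots each, and both gave a rise in 24h_Cyt vs 24h_Ctrl: 0.75 and 0.66. Their mean processed intensity went from 161 to 696 and from 191 to 814, before any scaling for brightness. miR-183-5p had probes of 18 and 19 bases, with log2FC of 0.0046 and -0.16. The shorter probe gave almost no difference and the longer, brighter probe a lower value, as in the mean over both. The longest probe of miR-183-3p, of 15 bases, had -0.079, and -0.19 in 24h_Giv_Cyt vs 24h_Giv_Ctrl, but -0.11 and -0.016 on the scaled processed signal. These log2FC of single probes were not tested.

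miR-182 had probes of 14, 15 and 16 bases, with 6, 5 and 5 spots, and its probes did not give the same value. The log2FC was 0.035 for the shortest, -0.28 for the middle and -0.37 for the longest. Median processed intensity over the arrays was 33.2, 88.9 and 532 for them, and the shortest was well above background on 84.0% of its spots against 100% for the others. In scaled processed signal the 3 values were -0.0050, -0.33 and -0.48. The log2FC of -0.19 for miR-182 is therefore an average in which 1 probe shows almost no difference. Its standard error in the pooled fit over spots was 0.33. That fit had no term for probe, so the unlike levels of the probes (mean log2 6.27, 7.12 and 9.27) enter this error by construction. It does not measure how far the probes differ in response. For miR-96-5p, with probes at 8.44 and 8.68, the standard error in that fit was 0.048 for 24h_Giv_Cyt vs 24h_Cyt.

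Using probe 2 of miR-182 alone, miR-96-5p minus miR-182 shifted by 0.67 with cytokines at 24 h and miR-183-5p minus miR-182 by 0.19, each at the smallest exact p of 0.005 and an adjusted p of 0.03. Using probe 1 alone the former was 0.36 (exact p 0.045, adjusted p 0.26) and the latter turned to -0.12 (exact p 0.065, adjusted p 0.26). With probe 3 alone the shifts were 0.67 and 0.19 with adjusted p of 0.08 each (exact p 0.015 and 0.02). The sign of miR-183-5p minus miR-182 thus depended on which probe stood for miR-182, whereas miR-96-5p minus miR-182 was positive with each.

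**Figure D4:**
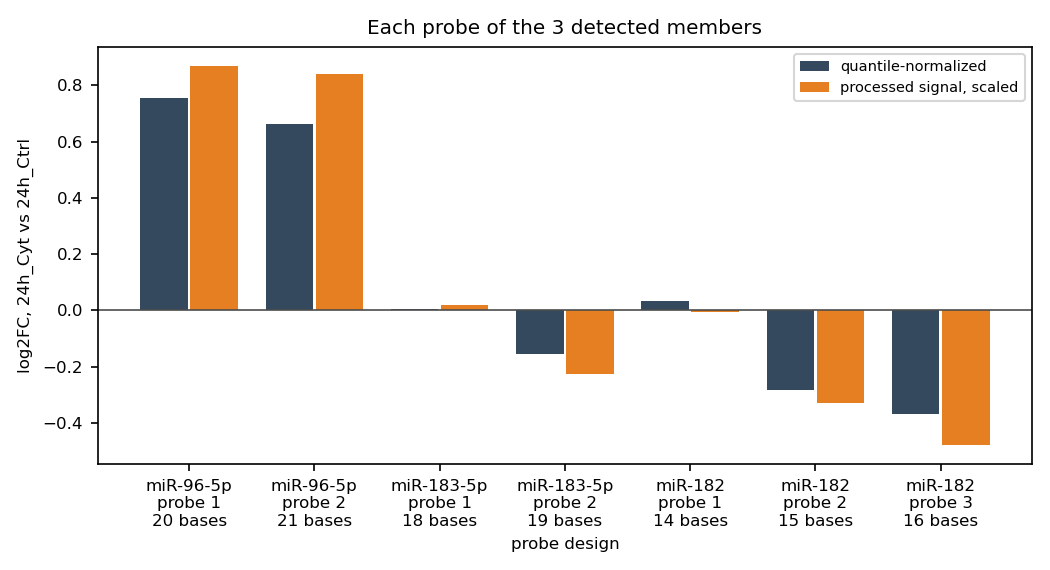
Log2FC of 24h_Cyt vs 24h_Ctrl (vertical axis) for each probe design of the 3 detected members, on the quantile-normalized scale (dark bars) and the scaled processed scale (light bars). Both probes of miR-96-5p are positive (0.75 and 0.66), while those of miR-182 read 0.035, -0.28 and -0.37 on the first scale and -0.0050, -0.33 and -0.48 on the second. Without normalization between arrays miR-182 as a whole is 0.62, below the 0.83 of the median detected miR.

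Other polycistrons served as a yardstick for how far members of a shared transcript spread. Of 19 listed, 12 had at least 2 members detected on all 24 arrays, 10 of them with 2 such members. The range of log2FC in 24h_Cyt vs 24h_Ctrl, highest minus lowest member, was 0.90 for the miR-183 cluster, against a median of 0.28 (0.0014 to 0.74) in the 12. None of the 12 had a wider range; the nearest was miR-106b-5p/93-5p/25-3p, and a list with 2 members has less room for a wide range than one with 3. On the scaled processed signal the range was 1.29 against a median of 0.11 and a highest of 0.81.

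With Givinostat the range within the cluster was 0.21, against a median of 0.11 in the same 12, and 1 of them was wider. On the scaled processed signal it was 0.37 against a median of 0.088, and again 1 was wider. These ranges are descriptions without a test, and polycistrons that share a miR, such as the listed pairs with miR-29b-3p, are not independent of each other.

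**Figure D5:**
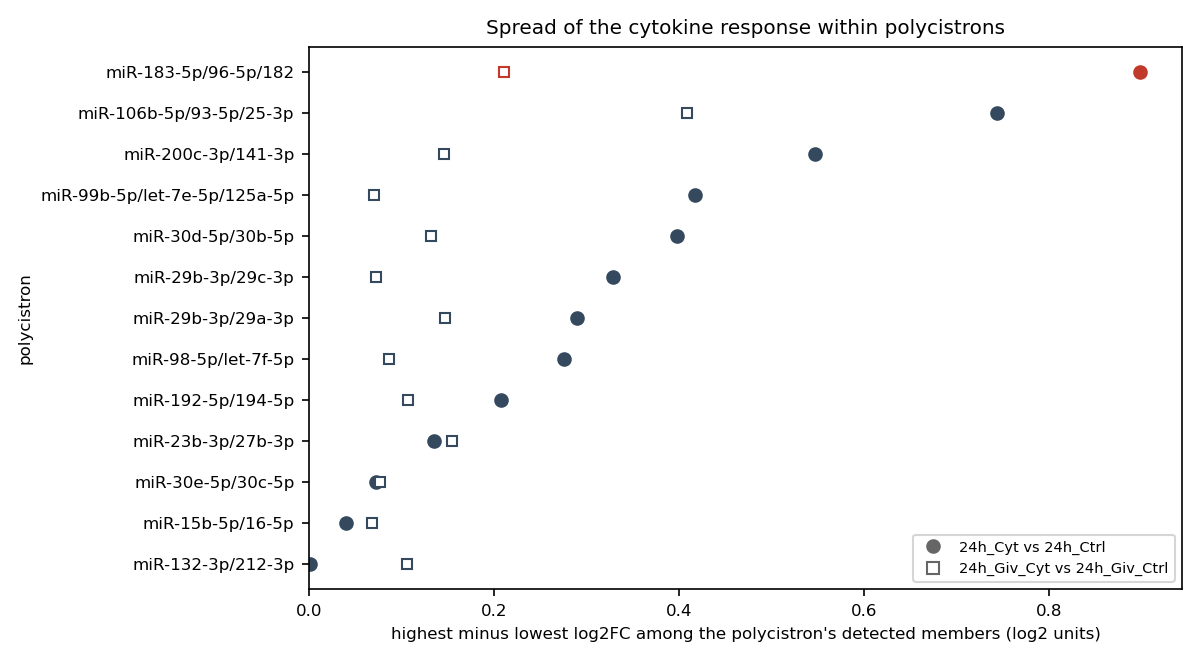
Highest minus lowest log2FC among detected members (horizontal axis, log2 units) for the miR-183 cluster and 12 other polycistrons, after cytokines for 24 h without Givinostat (filled circles) and with it (open squares). The cluster reads 0.90 without and 0.21 with Givinostat; the medians of the others are 0.28 and 0.11.

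The 5 miRs whose pattern over the 24 arrays was most like the mean of the 3 detected members were miR-148b-3p (r 0.88, rho 0.88), miR-384-5p (r 0.86), miR-340-5p (r 0.86), miR-344a-3p (r 0.85) and miR-130a-3p (r 0.85). The median r over the 114 other miRs detected on all arrays was 0.39, with 5th and 95th percentiles of -0.85 and 0.85. With group means removed, r for the 5 was 0.90, 0.88, 0.91, 0.88 and 0.91. Their log2FC in 24h_Cyt vs 24h_Ctrl lay between 0.10 and 0.40 on the quantile-normalized scale, above the -0.19 of miR-182 and below the 0.71 of miR-96-5p. Without normalization between arrays miR-182 itself had 0.62, below the 0.83 of the median detected miR, so that value does not compare with these.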

How the data were processed

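Total RNA of INS1 cells was read on 24 one-colour Agilent rat miRNA arrays. The deposited array files give intensity per spot, background-subtracted in the processed column; their headers name Agilent Feature Extraction 10.7.3.1, the labels 9.1. The authors' deposited table gives log2 values, and the median over spots of the values computed here equals it to within 4.9e-09. Of 12843 spots per array, 434 negative and 281 positive controls were left out, leaving 12128 spots of 758 miRs; 0 were saturated. Median spot signal was quantile-normalized, converted to log2 and averaged over 16 spots. limma 3.58.1 (R 4.3.3) fitted 8 group means to the 24 arrays (16 residual degrees of freedom), with Benjamini-Hochberg adjustment over 758 miRs per comparison; a call needed an adjusted p below 0.05 and a change past 1.1-fold either way. The fit was tested on simulated data. Differences between members were tested by exact permutation with Python 3.11.15, adjusted over 12 tests. Named miRs were the members by name, miRs sharing a seed, the 5 most alike by r, and listed polycistrons and cell markers. The members and lists were chosen with earlier results of these data known. Alternatives changed background correction, signal column, spot summary, scaling, filter, test, slide, replicate block, brightness and arrays left out. Targets of the miRs and messenger RNA were not analysed here.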

Additional observations from a re-analysis of the deposited data

How the results depend on the processing

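A setting here is an alternative to the fit of the report; the 24 h interaction and the 6 h interaction are those of Givinostat and cytokines, and the time term is the cytokine effect at 24 h minus that at 6 h. What is limited by signal over background comes first: miR-183-3p and miR-96-3p were detected on 0 of 24 arrays over their 16 spots. Every probe of miR-96-3p was at background and cannot be read for change, while the longest probe of miR-183-3p was well above background on 89.6% of its spots and the shortest of miR-182 on 84.0%. The quantile-normalized signal has no background subtracted, and the scaled processed signal differs from it in subtraction and scaling at once, so the part of each cannot be told apart. In 24h_Cyt vs 24h_Ctrl the quantile-normalized and the scaled processed log2FC were 0.71 and 0.85 for miR-96-5p and -0.19 and -0.44 for miR-182, while in 6h_Cyt vs 6h_Ctrl miR-96-5p had 0.15 and 0.12. Whether the arrays of a group come from separate cultures is not stated, so the p-values speak for the spread between arrays.

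The first kind of setting keeps every array, drops a slide or fits the compared groups alone. Of 630 member values under it, 545 kept their direction and side of the threshold, 18 gained a call with the same sign, 7 lost a call and 60 changed sign. The median over spots and the deposited log2 table give the same values, and both are in every count of this kind. Of the 60, 4 met both thresholds by limma with the new sign, all without normalization between arrays: miR-183-5p and miR-182 in 24h_Cyt vs 24h_Ctrl (adjusted p 0.0039 and 0.0013) and in 24h_Cyt vs 6h_Cyt (adjusted p 0.029 and 0.013). The median detected miR shifted by 0.83 and 0.69 in these comparisons. miR-182 lay below that shift in both and miR-183-5p above it, so for miR-182 the new sign is no rise against the other miRs. With a single array left out the numbers were 1036, 3, 1 and 40 of 1080, and 0 of the 40 met both thresholds. Of the counts of called miRs, 162 of 210 stayed within 1.5 times in the first kind of setting and 337 of 360 in the second. Differences between members kept direction and side in 113 of 140 and 273 of 288, with 4 and 0 gaining the threshold. The mean in place of the median spot signal changed no member value in direction or side. Where a value changed, the cause was not tested, except that testing detected miRs alone lowers the number of miRs tested by construction, and leaving out a slide or fitting the compared groups alone the number of arrays. In the pooled fit unlike levels of a miR's probes enter the error, also by construction.

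miR-96-5p spanned 0.32 to 1.86 (adjusted p 3.2e-36 to 0.45) in 24h_Cyt vs 24h_Ctrl, -0.72 to -0.084 (adjusted p 6.2e-05 to 1) in 24h_Giv_Cyt vs 24h_Cyt, 0.17 to 0.59 (adjusted p 9.6e-11 to 1) in 24h_Giv_Ctrl vs 24h_Ctrl and -0.66 to -0.18 (adjusted p 0.0012 to 1) in 6h_Giv_Cyt vs 6h_Cyt. Its values spanned -0.53 to -0.28 (adjusted p 9.6e-08 to 1) in 24h_Ctrl vs 6h_Ctrl, -0.050 to 1.09 (adjusted p 3.1e-05 to 1) in 24h_Cyt vs 6h_Cyt, 0.045 to 0.66 (adjusted p 0.00036 to 1) in 24h_Giv_Cyt vs 6h_Giv_Cyt and -1.30 to -0.37 (adjusted p 7.0e-15 to 1) in the 24 h interaction. Further spans were -0.68 to -0.12 (adjusted p 0.031 to 1) in the 6 h interaction and 0.24 to 1.56 (adjusted p 6.0e-13 to 0.999) in the time term. miR-182 spanned -0.44 to 0.62 (adjusted p 0.00059 to 0.74) in 24h_Cyt vs 24h_Ctrl, -0.27 to 0.32 (adjusted p 0.014 to 0.91) in 24h_Giv_Cyt vs 24h_Giv_Ctrl and -0.39 to 0.52 (adjusted p 0.0099 to 0.999) in the time term. In the differences for cytokines at 24 h the span was 0.45 to 0.63 (adjusted p 0.060 to 0.21) for miR-96-5p minus miR-183-5p, 0.36 to 0.83 (adjusted p 0.030 to 0.26) for miR-96-5p minus miR-182 and -0.12 to 0.20 (adjusted p 0.030 to 0.71) for miR-183-5p minus miR-182.

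Without normalization between arrays, miRs called numbered 173 for 24h_Cyt vs 24h_Ctrl, 323 for 24h_Giv_Cyt vs 24h_Giv_Ctrl, 122 for 24h_Cyt vs 6h_Cyt, 21 for 24h_Giv_Cyt vs 6h_Giv_Cyt, 1 for the 24 h interaction and 51 for the time term. miR-96-5p reached the threshold in 24h_Cyt vs 6h_Cyt (1.09, adjusted p 0.0062) and in the time term (1.56, adjusted p 0.013). miR-183-5p changed sign to 0.96 in 24h_Cyt vs 24h_Ctrl, to 0.34 in 24h_Giv_Cyt vs 24h_Giv_Ctrl, to 0.19 in 24h_Giv_Ctrl vs 24h_Ctrl, to 0.13 in 6h_Cyt vs 6h_Ctrl, to -0.15 in 6h_Giv_Cyt vs 6h_Giv_Ctrl, to 0.10 in 6h_Giv_Ctrl vs 6h_Ctrl, to 0.74 in 24h_Cyt vs 6h_Cyt, to -0.29 in the 6 h interaction and to 0.82 in the time term. miR-182 changed sign to 0.62 in 24h_Cyt vs 24h_Ctrl, to 0.32 in 24h_Giv_Cyt vs 24h_Giv_Ctrl, to -0.16 in 24h_Giv_Cyt vs 24h_Cyt, to 0.10 in 6h_Cyt vs 6h_Ctrl, to 0.17 in 6h_Giv_Ctrl vs 6h_Ctrl, to -0.026 in 24h_Ctrl vs 6h_Ctrl, to 0.49 in 24h_Cyt vs 6h_Cyt, to -0.047 in 24h_Giv_Ctrl vs 6h_Giv_Ctrl, to 0.35 in 24h_Giv_Cyt vs 6h_Giv_Cyt, to -0.30 in the 24 h interaction and to 0.52 in the time term. The median detected miR shifted as well in this setting. For cytokines at 24 h its log2FC was 0.83, or 0.43 where Givinostat was present. From 6 h to 24 h it was 0.69 under cytokines and 0.43 under both agents. miR-182 lay below that median each time, so there its new sign is no rise against the other miRs. miR-183-5p lay below it for cytokines at 24 h with Givinostat, and above it in the others. miR-96-5p minus miR-183-5p changed sign to -0.032 for cytokines at 6 h. miR-96-5p minus miR-182 changed sign to -0.055 for cytokines at 6 h and to -0.058 for Givinostat at 24 h. miR-183-5p minus miR-182 changed sign to -0.024 for cytokines at 6 h.

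With processed signal scaled by array, miRs called numbered 87 for 24h_Cyt vs 24h_Ctrl, 7 for 24h_Giv_Cyt vs 24h_Giv_Ctrl, 3 for 24h_Giv_Cyt vs 24h_Cyt, 23 for 24h_Giv_Ctrl vs 24h_Ctrl, 1 for 6h_Cyt vs 6h_Ctrl, 35 for 24h_Ctrl vs 6h_Ctrl, 5 for 24h_Giv_Cyt vs 6h_Giv_Cyt, 24 for the 24 h interaction and 51 for the time term. miR-96-5p reached the threshold in 24h_Giv_Ctrl vs 24h_Ctrl (0.40, adjusted p 0.029), in 24h_Ctrl vs 6h_Ctrl (-0.50, adjusted p 0.0074), in the 24 h interaction (-0.68, adjusted p 0.010) and in the time term (0.73, adjusted p 0.0099). miR-183-5p changed sign to 0.026 in 24h_Giv_Cyt vs 24h_Cyt, to 0.0076 in 24h_Ctrl vs 6h_Ctrl and to 0.13 in the 24 h interaction. miR-182 reached the threshold in the time term (-0.39, adjusted p 0.0099) and changed sign to -0.11 in 24h_Giv_Ctrl vs 24h_Ctrl, to 0.13 in 6h_Giv_Cyt vs 6h_Giv_Ctrl and to 0.18 in the 6 h interaction. miR-96-5p minus miR-183-5p changed sign to -0.049 for cytokines at 6 h. miR-96-5p minus miR-182 reached the threshold for cytokines at 24 h (0.83, adjusted p 0.030) and changed sign to -0.052 for cytokines at 6 h and to 0.061 for Givinostat at 6 h. miR-183-5p minus miR-182 reached the threshold for cytokines at 24 h (0.20, adjusted p 0.030) and changed sign to -0.0021 for cytokines at 6 h.

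With the median over spots, and equally with the deposited log2 table, miRs called numbered 0 for 24h_Giv_Cyt vs 24h_Cyt. miR-96-5p changed sign to 0.025 in 24h_Giv_Ctrl vs 6h_Giv_Ctrl. miR-183-5p changed sign to 0.019 in 24h_Giv_Ctrl vs 24h_Ctrl. miR-182 reached the threshold in 24h_Giv_Cyt vs 24h_Giv_Ctrl (-0.27, adjusted p 0.014) and changed sign to -0.0071 in 24h_Giv_Cyt vs 24h_Cyt, to -0.023 in 24h_Giv_Ctrl vs 24h_Ctrl, to 0.077 in 6h_Giv_Cyt vs 6h_Giv_Ctrl, to 0.017 in 6h_Giv_Cyt vs 6h_Cyt and to 0.15 in the 6 h interaction. miR-96-5p minus miR-183-5p changed sign to -0.013 for cytokines at 6 h. miR-183-5p minus miR-182 changed sign to 0.014 for Givinostat at 24 h.

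With normexp background correction at an offset of 50, miRs called numbered 0 for 24h_Giv_Cyt vs 24h_Cyt. miR-183-5p changed sign to 0.00045 in the 24 h interaction.

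Testing the detected miRs alone, miRs called numbered 0 for 24h_Giv_Cyt vs 24h_Cyt and 2 for 24h_Cyt vs 6h_Cyt.

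Fitting the compared groups alone, miRs called numbered 49 for 24h_Cyt vs 24h_Ctrl, 1 for 24h_Giv_Cyt vs 24h_Giv_Ctrl, 0 for 24h_Giv_Cyt vs 24h_Cyt and 1 for 24h_Giv_Cyt vs 6h_Giv_Cyt.

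With slide as a fixed block, miRs called numbered 1 for 24h_Cyt vs 24h_Ctrl, 0 for 24h_Giv_Cyt vs 24h_Cyt and 1 for the time term. miR-96-5p lost its call in 24h_Cyt vs 24h_Ctrl (0.82, adjusted p 0.37). miR-183-5p changed sign to 0.058 in 24h_Giv_Cyt vs 24h_Cyt, to -0.035 in 6h_Giv_Cyt vs 6h_Giv_Ctrl and to 0.080 in the 24 h interaction. miR-182 lost its call in 24h_Cyt vs 24h_Ctrl (-0.18, adjusted p 0.55) and changed sign to 0.00063 in 6h_Giv_Cyt vs 6h_Cyt and to 0.015 in the 6 h interaction.

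With slide as a random block, miRs called numbered 0 for 24h_Giv_Cyt vs 24h_Cyt. miR-183-5p changed sign to -0.013 in 6h_Giv_Cyt vs 6h_Giv_Ctrl.

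Leaving out slide 1, which leaves 1 24h_Cyt array assumed to vary like the other groups, miRs called numbered 3 for 24h_Cyt vs 24h_Ctrl and 0 for 24h_Giv_Cyt vs 24h_Cyt. miR-96-5p lost its call in 24h_Cyt vs 24h_Ctrl (0.70, adjusted p 0.20) and changed sign to -0.053 in 6h_Giv_Ctrl vs 6h_Ctrl and to 0.11 in 24h_Giv_Ctrl vs 6h_Giv_Ctrl. miR-183-5p changed sign to 0.010 in 24h_Giv_Cyt vs 24h_Cyt and to 0.018 in the 24 h interaction. miR-182 lost its call in 24h_Cyt vs 24h_Ctrl (-0.16, adjusted p 0.22). miR-96-5p minus miR-183-5p changed sign to -0.0081 for cytokines at 6 h.

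With brightness as a covariate, miRs called numbered 3 for 24h_Cyt vs 24h_Ctrl, 0 for 24h_Giv_Cyt vs 24h_Cyt and 2 for the time term. miR-96-5p lost its call in 24h_Cyt vs 24h_Ctrl (0.32, adjusted p 0.45) and changed sign to -0.043 in 24h_Giv_Cyt vs 24h_Giv_Ctrl, to -0.061 in 6h_Giv_Ctrl vs 6h_Ctrl, to -0.050 in 24h_Cyt vs 6h_Cyt and to 0.048 in 24h_Giv_Ctrl vs 6h_Giv_Ctrl. miR-183-5p changed sign to 0.15 in 24h_Giv_Cyt vs 24h_Cyt, to 0.0039 in 24h_Ctrl vs 6h_Ctrl, to -0.068 in 24h_Giv_Cyt vs 6h_Giv_Cyt and to 0.24 in the 24 h interaction. miR-182 lost its call in 24h_Cyt vs 24h_Ctrl (-0.23, adjusted p 0.093) and changed sign to 0.0026 in the 6 h interaction.

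In the pooled fit over spots, miRs called numbered 48 for 24h_Cyt vs 24h_Ctrl, 43 for 24h_Giv_Cyt vs 24h_Giv_Ctrl, 24 for 24h_Giv_Cyt vs 24h_Cyt, 3 for 24h_Giv_Ctrl vs 24h_Ctrl, 2 for 6h_Cyt vs 6h_Ctrl, 21 for 6h_Giv_Cyt vs 6h_Cyt, 5 for 6h_Giv_Ctrl vs 6h_Ctrl, 5 for 24h_Ctrl vs 6h_Ctrl, 18 for 24h_Cyt vs 6h_Cyt, 2 for 24h_Giv_Ctrl vs 6h_Giv_Ctrl, 14 for 24h_Giv_Cyt vs 6h_Giv_Cyt, 22 for the 24 h interaction, 1 for the 6 h interaction and 21 for the time term. miR-96-5p reached the threshold in 24h_Giv_Cyt vs 24h_Cyt (-0.24, adjusted p 6.2e-05), in 24h_Giv_Ctrl vs 24h_Ctrl (0.37, adjusted p 9.6e-11), in 6h_Giv_Cyt vs 6h_Cyt (-0.22, adjusted p 0.0012), in 24h_Ctrl vs 6h_Ctrl (-0.31, adjusted p 9.6e-08), in 24h_Cyt vs 6h_Cyt (0.24, adjusted p 3.1e-05), in 24h_Giv_Cyt vs 6h_Giv_Cyt (0.22, adjusted p 0.00036), in the 24 h interaction (-0.61, adjusted p 7.0e-15), in the 6 h interaction (-0.28, adjusted p 0.031) and in the time term (0.56, adjusted p 6.0e-13). miR-182 lost its call in 24h_Cyt vs 24h_Ctrl (-0.19, adjusted p 0.74).

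With probe 2 of miR-183-5p alone, miR-96-5p minus miR-183-5p changed sign to -0.0041 for cytokines at 6 h. With probe 2 of miR-182 alone, miR-96-5p minus miR-182 reached the threshold for cytokines at 24 h (0.67, adjusted p 0.030). miR-183-5p minus miR-182 reached the threshold for cytokines at 24 h (0.19, adjusted p 0.030) and changed sign to -0.010 for cytokines at 6 h and to 0.0046 for Givinostat at 24 h. With probe 1 of miR-182 alone, miR-96-5p minus miR-182 changed sign to -0.00062 for cytokines at 6 h. miR-183-5p minus miR-182 changed sign to -0.12 for cytokines at 24 h and to -0.020 for cytokines at 6 h. With probe 1 of miR-96-5p alone, miR-96-5p minus miR-182 changed sign to -0.0044 for Givinostat at 24 h. With probe 3 of miR-182 alone, miR-96-5p minus miR-182 changed sign to -0.036 for Givinostat at 24 h and to 0.017 for Givinostat at 6 h. With probe 1 of miR-183-5p alone, miR-183-5p minus miR-182 changed sign to -0.0052 for cytokines at 6 h.

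With the replicate number as a replicate block, 24h_Cyt vs 24h_Ctrl had 30 called miRs and 24h_Giv_Cyt vs 24h_Cyt had 0, and no member changed its call or sign. The 84 pairs of arrays with the same number had a mean r of -0.025 (-0.936 to 0.966) between their deviations from the group means. For the 168 other pairs it was 0.014. Of the 24 arrays, 10 lay closest to an array of their own number. No pairing by number was seen, which does not show that the samples were unpaired.

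With a single array left out, the number of miRs called ran from 14 to 44 in 24h_Cyt vs 24h_Ctrl, 0 to 2 in 24h_Giv_Cyt vs 24h_Cyt, 0 to 1 in 6h_Cyt vs 6h_Ctrl, 5 to 10 in 24h_Cyt vs 6h_Cyt and 0 to 1 in 24h_Giv_Ctrl vs 6h_Giv_Ctrl. miR-96-5p ran from 0.59 to 0.81 in 24h_Cyt vs 24h_Ctrl, -0.053 to 0.17 in 24h_Giv_Cyt vs 24h_Giv_Ctrl, -0.26 to 0.026 in 6h_Giv_Cyt vs 6h_Giv_Ctrl, -0.056 to 0.13 in 6h_Giv_Ctrl vs 6h_Ctrl and -0.083 to 0.14 in 24h_Giv_Ctrl vs 6h_Giv_Ctrl. miR-183-5p ran from -0.072 to 0.031 in 24h_Giv_Cyt vs 24h_Cyt, -0.028 to 0.030 in 24h_Giv_Ctrl vs 24h_Ctrl, -0.052 to 0.0030 in 6h_Cyt vs 6h_Ctrl, -0.13 to 0.17 in 6h_Giv_Cyt vs 6h_Giv_Ctrl and -0.028 to 0.19 in 24h_Giv_Cyt vs 6h_Giv_Cyt. It ran from -0.067 to 0.035 in the 24 h interaction and -0.11 to 0.19 in the 6 h interaction. miR-182 ran from -0.0067 to 0.019 in 24h_Giv_Ctrl vs 24h_Ctrl, -0.049 to 0.0083 in 6h_Cyt vs 6h_Ctrl, -0.059 to 0.0050 in 6h_Giv_Cyt vs 6h_Giv_Ctrl, -0.054 to 0.011 in 6h_Giv_Cyt vs 6h_Cyt and -0.043 to 0.013 in 6h_Giv_Ctrl vs 6h_Ctrl. It ran from -0.0026 to 0.055 in 24h_Ctrl vs 6h_Ctrl, -0.16 to -0.12 in 24h_Cyt vs 6h_Cyt, -0.072 to 0.0018 in 24h_Giv_Cyt vs 6h_Giv_Cyt and -0.043 to 0.026 in the 6 h interaction. miR-96-5p minus miR-183-5p ran from -0.014 to 0.066 for cytokines at 6 h. miR-96-5p minus miR-182 ran from -0.015 to 0.096 for cytokines at 6 h, -0.046 to 0.087 for Givinostat at 24 h and -0.11 to 0.0015 for Givinostat at 6 h. miR-183-5p minus miR-182 ran from -0.051 to 0.095 for cytokines at 6 h.

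Counts moved without these arrays: in 24h_Cyt vs 24h_Ctrl to 20 (24h_Ctrl replicate 1), 14 (24h_Ctrl replicate 2), 17 (24h_Cyt replicate 1) and 16 (24h_Cyt replicate 2). In 24h_Cyt vs 6h_Cyt the count was 10 without 6h_Ctrl replicate 1, in 24h_Giv_Ctrl vs 6h_Giv_Ctrl it was 1 without 6h_Giv_Ctrl replicate 1, and in 6h_Cyt vs 6h_Ctrl it was 1 without 24h_Cyt replicate 1, 24h_Cyt replicate 3, 24h_Giv_Cyt replicate 1 or 24h_Giv_Cyt replicate 2. In 24h_Giv_Cyt vs 24h_Cyt the count was 0 without 24h_Ctrl replicate 3, 24h_Giv_Ctrl replicate 1, 24h_Cyt replicate 2, 6h_Ctrl replicate 1, 6h_Giv_Ctrl replicate 3, 6h_Cyt replicate 2 or 6h_Giv_Cyt replicate 2 and 2 without 24h_Ctrl replicate 1, 24h_Giv_Cyt replicate 2, 6h_Giv_Ctrl replicate 1, 6h_Giv_Ctrl replicate 2, 6h_Giv_Cyt replicate 1 or 6h_Giv_Cyt replicate 3. miR-96-5p lost its call in 24h_Cyt vs 24h_Ctrl without 24h_Ctrl replicate 2 (0.59, adjusted p 0.064; 0.0039 to 0.064 over the arrays left out). miR-182 gained a call in 24h_Cyt vs 6h_Cyt without 24h_Giv_Cyt replicate 3 (adjusted p 0.044), 6h_Ctrl replicate 1 (0.037) or 6h_Giv_Cyt replicate 3 (0.023).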
